A study of Arabidopsis thaliana with 2 samples.

Results

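The double B-box genes BBX18 to BBX25 form group IV of the B-box zinc finger family of Arabidopsis thaliana. The clock protein PRR5 (PSEUDO-RESPONSE REGULATOR 5) represses transcription, and its regions are described here at these 8 genes, out of 27444 protein-coding genes. The 8 were taken by locus, and a region was counted at a gene where its centre lay inside it or no more than 3 kb beyond its ends. By this rule 8 of the 8983 regions in the deposited list lay at 6 of the 8 genes. The other 2 genes, BBX22 and BBX23, had none. By the same rule 46.7% of all protein-coding genes had a region.

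The study used chromatin immunoprecipitation followed by sequencing (ChIP-seq), which reads the DNA that a tagged protein is crosslinked to. Whole plants were used for both libraries, and their genotype was PRR5pro:FLAG-PRR5-GFP/prr5, so the tagged protein was expressed from the PRR5 promoter in a prr5 mutant. The plants were 18 days old, had grown in 12 h light and 12 h dark on medium with 2% sucrose and 0.3% gellan gum, and were taken 10 h after the light came on. The ChIP library was made with an anti-GFP antibody and the input library from DNA without that step, with 1 library in each group. There was therefore no replicate check, and all values describe this pair of libraries only.

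Proteins of group IV carry 2 B-box zinc-binding domains in tandem and lack the CCT domain found in CONSTANS and its nearest relatives. They act in photomorphogenesis, the switch of a seedling from growth in darkness to growth in light. Several of them bind or modulate HY5, a bZIP activator of light-responsive genes, and several are marked for degradation by the ubiquitin ligase COP1. BBX18, BBX19, BBX24 (STO, SALT TOLERANCE) and BBX25 (STH) are known mainly as repressors of photomorphogenesis. BBX20 (BZS1), BBX21 (STH2), BBX22 (LZF1) and BBX23 are known mainly as promoters of it.

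Within 3 kb, the best region of each of the 4 repressor genes ranked high in the list. The 4 promoter genes had best regions lower in the list, or none. The best regions of the repressor genes ranked between 127 and 599 of 8983 when the list was ordered by the authors' false discovery rate, a rate in percent of the ChIP over the input with lower values meaning better support. They held between 2320 and 4836 reads. The best regions of BBX20 and BBX21 ranked 4451 and 3401 and held 127 and 496 reads. Counted by best region alone, the reads at the 4 repressor genes did not overlap those at BBX20 and BBX21. With all regions counted they did, because the weaker region of the repressor gene BBX24 ranked 4510 and held 207 reads. The promoter genes BBX22 and BBX23 had no region, so no reads to compare. Over all protein-coding genes 46.7% had a region within 3 kb. Within that distance 15.5% had one among the 2245 regions of lowest false discovery rate, and 17.2% among the 2245 with the most reads. The division depends on the 3 kb rule. BBX18 had no region within 1 kb, and BBX19 and BBX25 had none when each region went to its nearest gene alone. BBX24 was thus the only repressor gene that kept its best region under both rules. The promoter genes BBX20 and BBX21 each kept a region under both rules as well. This division by role was made after the values had been seen, and no test was run on it.

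BBX24 (AT1G06040), whose protein binds COP1 and opposes HY5, had the best supported region of the group. It lay on chromosome 1 from 1829847 to 1829993 (TAIR9), was 146 bp long and held 2320 reads (95% Poisson interval 2226.5 to 2416.4, which like all intervals here covers counting error only). Its false discovery rate was 6.00e-121%, rank 127. Its centre lay inside the gene, about 100 bp from the end with the higher coordinate. This region also lay within 1 kb of AT1G06045, which overlaps BBX24, and of AT1G06050, and a region alone does not show which of these genes PRR5 controls. Among the 143 other regions whose read counts were within 10% of this one, 4 had a lower false discovery rate.

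BBX24 had a further region on its other side, on chromosome 1 from 1827094 to 1827411. It was 317 bp long, the longest of the 8, and held 207 reads (179.8 to 237.2), with a false discovery rate of 0.165% and rank 4510. Its centre lay about 1100 bp outside BBX24 and inside AT1G06030. The intervals of the 2 regions at BBX24 did not overlap.

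BBX25 (AT2G31380), the closest relative of BBX24 and likewise a protein that curbs HY5, had 1 region at the edge of the gene. It lay on chromosome 2 from 13381674 to 13381797, was 123 bp long and held 2740 reads (2638.4 to 2844.6), with a false discovery rate of 7.99e-72% and rank 309. The centre lay less than 100 bp outside BBX25, at the end with the lower coordinate, and inside the neighbouring gene AT2G31370, which the gene table also calls PosF21. When each region was given to its nearest gene alone, BBX25 had none. The relatives BBX24 and BBX25 thus both had a region of over 2000 reads centred within about 100 bp of one gene end, at the higher coordinate in BBX24 and the lower in BBX25. The gene table gives no strand, so these ends were not assigned to the start or the end of transcription.

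BBX18 (AT2G21320), known as a repressor of photomorphogenesis and of thermotolerance, had the most reads of the group. Its region lay on chromosome 2 from 9124756 to 9124829 and held 4836 reads (4700.7 to 4974.3), rank 94 by reads. It was 73 bp long, and 108 regions of the list (1.20%) were shorter. With 66.2 reads per bp it ranked 31 of 8983 in reads per length. Of the 96 other regions whose length was within 10% of it, 2 held more reads, and the median with it included was 87 reads. The false discovery rate was 6.91e-50%, rank 540, and 36 of the 45 other regions with read counts within 10% had a lower one. The centre lay about 1500 bp outside BBX18, inside the pseudogene AT2G21310. No protein-coding gene other than BBX18 lay within 3 kb of it.

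BBX19 (AT4G38960), the closest relative of BBX18 and known as a repressor of photomorphogenesis and of flowering, had 1 region on chromosome 4 from 18163349 to 18163554. It was 205 bp long and held 4184 reads (4058.2 to 4312.7), with a false discovery rate of 1.35e-45% and rank 599. Its reads were fewer than those at BBX18, and the intervals of the 2 regions did not overlap. The centre lay about 100 bp outside BBX19, in the short gap between it and FBA2 (AT4G38970), which encodes a fructose-bisphosphate aldolase and whose end was closer to the centre. With the nearest gene alone, BBX19 had no region. BBX18 also has an aldolase gene beside it, FBA1 (AT2G21330). No region lay within 3 kb of FBA1, and the region of BBX18 was on the side away from it.

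**Figure D1:**
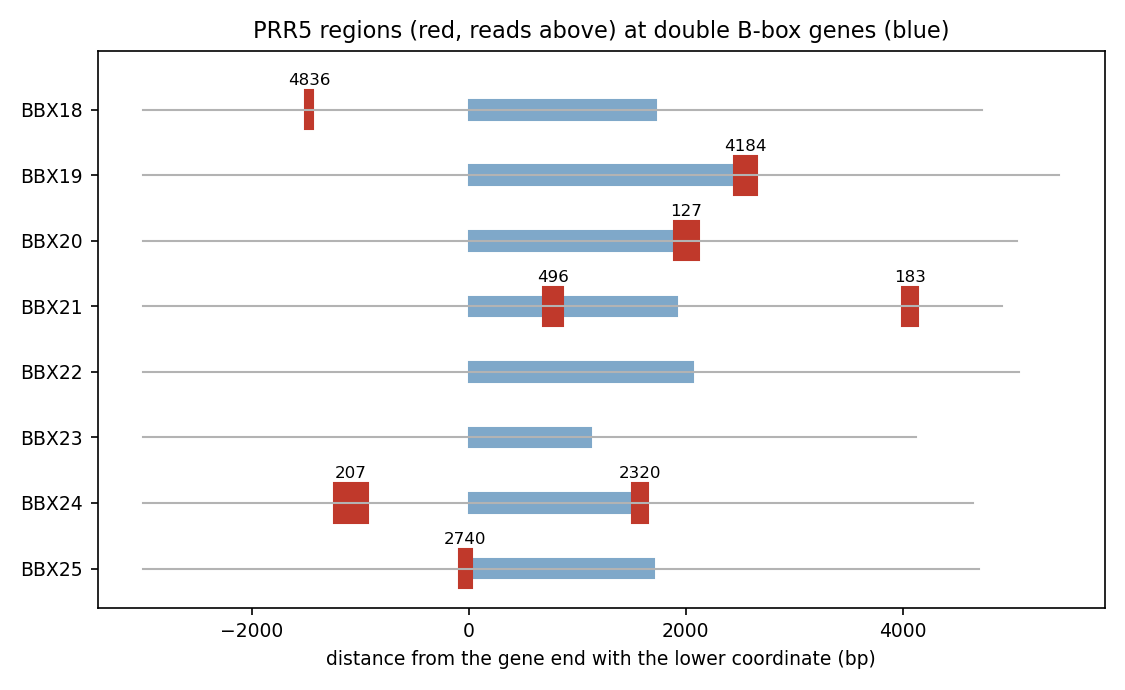
Positions of the 8 regions at the 8 double B-box genes, in bp from the gene end with the lower coordinate. Blue bars are genes, grey lines reach 3 kb beyond them, and red bars are regions drawn to scale with their reads above. The regions of BBX19, BBX20 and BBX25 and the one with 2320 reads at BBX24 sit at a gene end, that of BBX18 sits apart from the gene with 4836 reads, and BBX22 and BBX23 are empty.

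Of the genes known as promoters of photomorphogenesis, BBX21 (AT1G75540), which activates HY5 and acts with its protein, had 2 regions near the middle ranks of the list. The better one lay on chromosome 1 from 28366507 to 28366695, about 800 bp inside the gene, and held 496 reads (453.3 to 541.6), with a false discovery rate of 1.36e-04% and rank 3401. The other lay from 28369815 to 28369967 with 183 reads (157.4 to 211.5) at 2.21e-04%, rank 3457. Its centre was about 2200 bp outside BBX21, the farthest of the 8 that the 3 kb limit let in, and inside AT1G75550. Although the first region held more reads, the 2 stood close together in rank. Regions with read counts within 10% of theirs had a median false discovery rate of 2.21e-08% and 0.230%, so the first had a higher rate, and the second a lower one, than the median of regions with like reads.

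BBX20 (AT4G39070), also known as BZS1 and as a link between light and brassinosteroid signalling, had 1 region on chromosome 4 from 18206521 to 18206749. It held 127 reads (105.9 to 151.1), the fewest of the 8, over 228 bp at a false discovery rate of 0.121%. This region spanned the end of BBX20 with the higher coordinate, and its centre lay inside the gene less than 100 bp from that end. Over the whole list 60.3% of regions held more reads. BBX19 and BBX20 lie about 41 kb apart on chromosome 4 with 9 protein-coding genes between them, and 7 regions, that of BBX19 included, were centred in this interval.

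BBX22 (AT1G78600) and BBX23 (AT4G10240), both known as partners of HY5 in the light response, had no region within 3 kb. The closest region to BBX22 was about 18900 bp away, in GGH1, with 92 reads (74.2 to 112.8) and a false discovery rate of 11.0%. The closest to BBX23 was about 8800 bp away, in AT4G10210, with 81 reads (64.3 to 100.7) at 13.6%. Both of these stood low in the list, at ranks 6438 and 6637. A gene without a region is one at which the authors' list holds none, and the reads there were not given, so lower binding cannot be told from none.

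For the other 6 genes the next region outside the 3 kb limit was between about 6900 bp (BBX24) and about 42800 bp (BBX25) away. The count of genes with a region would thus have been the same with any limit from about 1500 bp to about 8800 bp. Within 20 kb of either end BBX21 had 11 regions, BBX24 6, BBX19 5, BBX20 4 and BBX23 2, while BBX18, BBX22 and BBX25 had 1 each. Protein-coding genes had a median of 3 (quartiles 2 and 5). The regions of BBX18 and BBX25 were thus alone in their neighbourhood, and those of BBX21 lay among many others.

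Over all protein-coding genes 46.7% had a region within 3 kb, against 6 of 8 double B-box genes (75.0%). With the list limited to the 2245 regions of lowest false discovery rate, one lay within 3 kb of 15.5% of all genes and of 4 of the 8, BBX18, BBX19, BBX24 and BBX25. Within 1 kb, all regions counted, it was 28.0% of all genes and 5 of the 8, with BBX18 the one lost. Within 500 bp it was 22.1% and the same 5. With the nearest protein-coding gene alone it was 25.7% and 4 of the 8, BBX18, BBX20, BBX21 and BBX24. The pseudogene that holds the centre of the BBX18 region was left out of this setting. Regions centred inside genes were found at 16.3% of all genes and at 3 of the 8, BBX20, BBX21 and BBX24. At a false discovery rate no higher than 5% a region lay within 3 kb of 34.2% of genes and of all 6. Among the 2245 regions with the most reads it was 17.2% and 4 of the 8, the repressor genes. Within 1 kb of the gene, the 2245 ranked highest by false discovery rate were found at 8.60% of all genes and at BBX19, BBX24 and BBX25, 3 of the 8. Counting any overlap with the gene or its 3 kb on each side gave 47.6% and 6 of the 8. By rank, the best regions of the 6 genes had their median at 569.5, where that of every protein-coding gene with a region was 3575. The other B-box groups, described below, also had medians under 3575, at 896 (group I), 1615.5 (II), 1357 (III) and 996.5 (V). For the light pathway genes described below it was 696. These are counts side by side without a test.

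**Figure D2:**
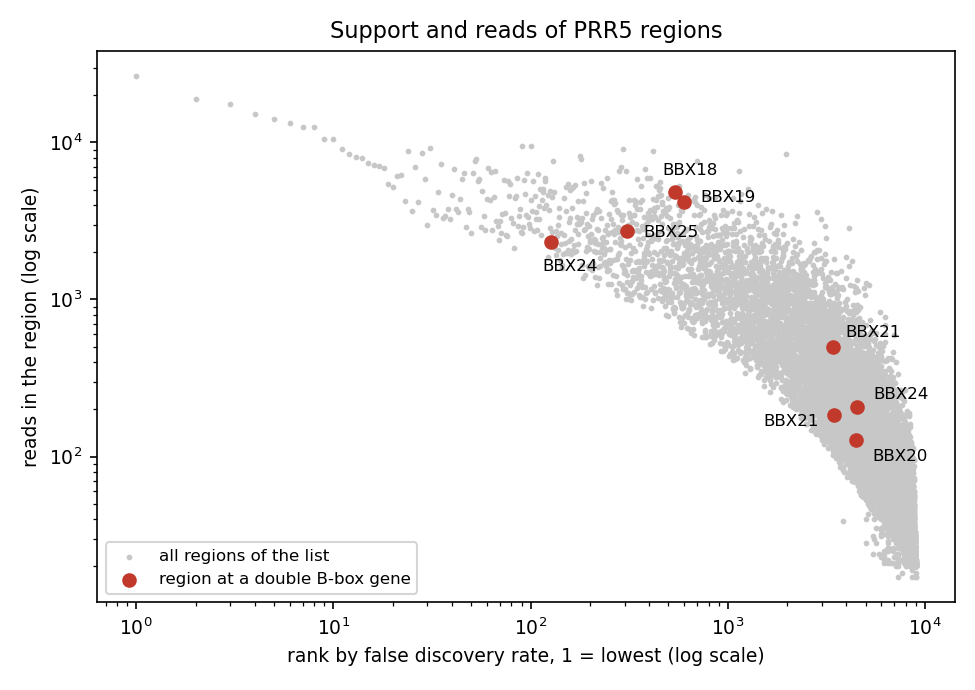
Reads in each region against its rank by false discovery rate, both on log scales, for all 8983 regions (grey) and the 8 at double B-box genes (red). The best regions at BBX18, BBX19, BBX24 and BBX25 lie at ranks 127 to 599 with 2320 to 4836 reads. The other 4, the weaker BBX24 region among them, lie between ranks 3401 and 4510 with 127 to 496 reads.

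Reads and false discovery rate ordered the regions with over 2000 reads at BBX18, BBX19, BBX24 and BBX25 differently. By reads the order was BBX18, BBX19, BBX25 and BBX24, at ranks 94, 138, 334 and 444 of the list. By false discovery rate it was BBX24, BBX25, BBX18 and BBX19, at ranks 127, 309, 540 and 599. No 2 of the 4 read intervals overlapped. The list gives no separate input count for a region and does not state the library of its reads. How far the input set these rates was therefore not tested. The 8 regions together held 15093 reads, 0.295% of the 5112270 reads in the list. Their median was 1408 reads and 170 bp, against 194 reads and 150 bp for all regions.

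Equal shares of forward and reverse reads lay within the counting interval of 7 of the 8 regions. In the regions with over 2000 reads, the share of forward reads was 50.9% at BBX18 (95% Clopper-Pearson interval 49.5 to 52.3), 49.4% at BBX19 (47.9 to 51.0), 48.0% at BBX24 (46.0 to 50.1) and 49.6% at BBX25 (47.7 to 51.5). It was 53.6% (49.1 to 58.1) and 50.3% (42.8 to 57.7) at BBX21 and 51.2% (42.2 to 60.1) at BBX20. The weaker region of BBX24 had 82 forward and 125 reverse reads, a share of 39.6% (32.9 to 46.6). Its unadjusted p was 0.00341, and after Benjamini-Hochberg adjustment over all 8983 regions it did not pass (two-sided exact binomial test, adjusted p = 0.171). Over the list 0.935% of regions passed this test and none of the 8 did (9.60% of all regions, and 1 of the 8, had an unadjusted p under 0.05).

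**Figure D3:**
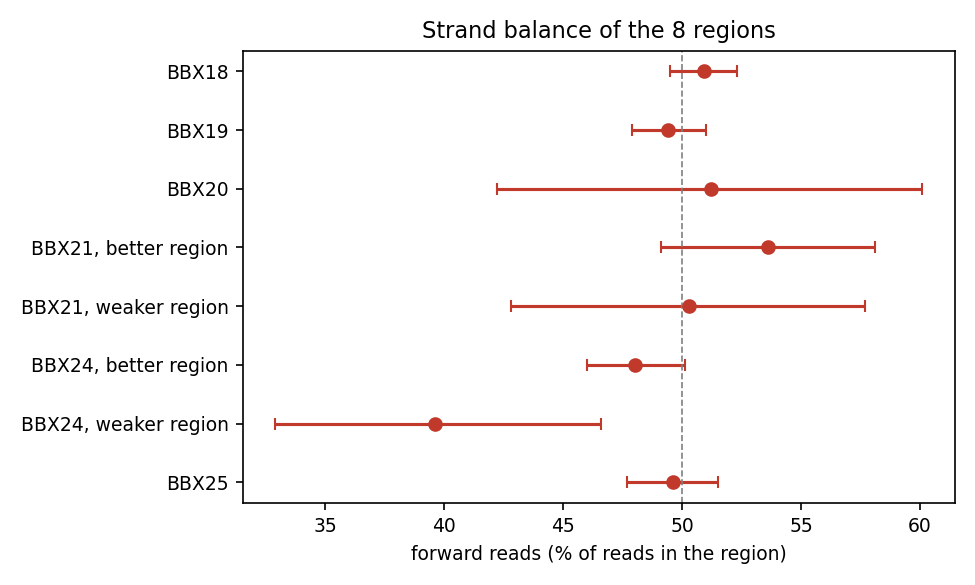
Share of forward reads in each of the 8 regions, in percent of its reads, with 95% Clopper-Pearson intervals as bars and the dashed line at equal strands. The interval of the weaker BBX24 region, 32.9 to 46.6%, is the one that leaves out the line.

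The other B-box groups are set beside group IV by the same rule. A region lay within 3 kb of 5 of the 6 genes of group I (CONSTANS and its nearest relatives), 4 of 7 in group II, 2 of 4 in group III and 6 of 7 in group V, whose proteins have a single B-box, where the share of all protein-coding genes was 46.7%. Among the 2245 regions ranked highest it was 5, 4, 2 and 5 of these, beside 4 of 8 double B-box genes and 15.5% of all protein-coding genes. The 4 of 7 in group II and 2 of 4 in group III within 3 kb were near the share of all genes. The 6 genes of group V include BBX26, whose region held 71 reads at a false discovery rate of 87.2%. With that rate limited to 5%, group V had 5 of 7 and the other groups were unchanged, against 34.2% of all protein-coding genes. The best region of any double B-box gene, rank 127, stood behind those of BBX28 and BBX29 in group V (ranks 5 and 32) and of COL5 in group I (rank 59). Some of these genes share a region, such as BBX9 with BBX30 and BBX10 with BBX31, so they are not independent. No test of a difference between the groups was run.

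Among 25 listed genes of the light pathway, 16 had a region within 3 kb (64.0%), where the share of all protein-coding genes was 46.7%. The best regions of DDB1A and FHY3 had false discovery rates of 8.37% and 78.1%. With a limit of 5% it was 14 of the 25 (56.0%), against 34.2% of all protein-coding genes. For 13 of the 25 the best region was among the 2245 ranked highest (52.0%), against 15.5% of all protein-coding genes. These 25 genes were listed with earlier results of these data known, and no test was run on the shares. The 5 with the best regions were PIF5 (rank 15, 7432 reads) and PIF4 (rank 68, 2948 reads), which encode bHLH factors that promote growth in darkness and shade, the photoreceptor gene PHYB (rank 116, 4850 reads), HFR1 (rank 156, 3094 reads), whose protein antagonises PIF factors, and RUP2 (rank 206, 1664 reads), a repressor of the UV-B receptor. The region centre lay inside PIF5 and PIF4, within 1 kb of PHYB, and between 1 and 3 kb from HFR1 and RUP2. HY5, the partner of several double B-box proteins, had a region at rank 233 with 2318 reads (2224.6 to 2414.3). That count is within the interval of the BBX24 region. No region lay within 3 kb of COP1, the ligase that marks several double B-box proteins for degradation, nor of HYH, SPA2, SPA3, DET1, CRY2, UVR8, PIF1 or FAR1.

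**Figure D4:**
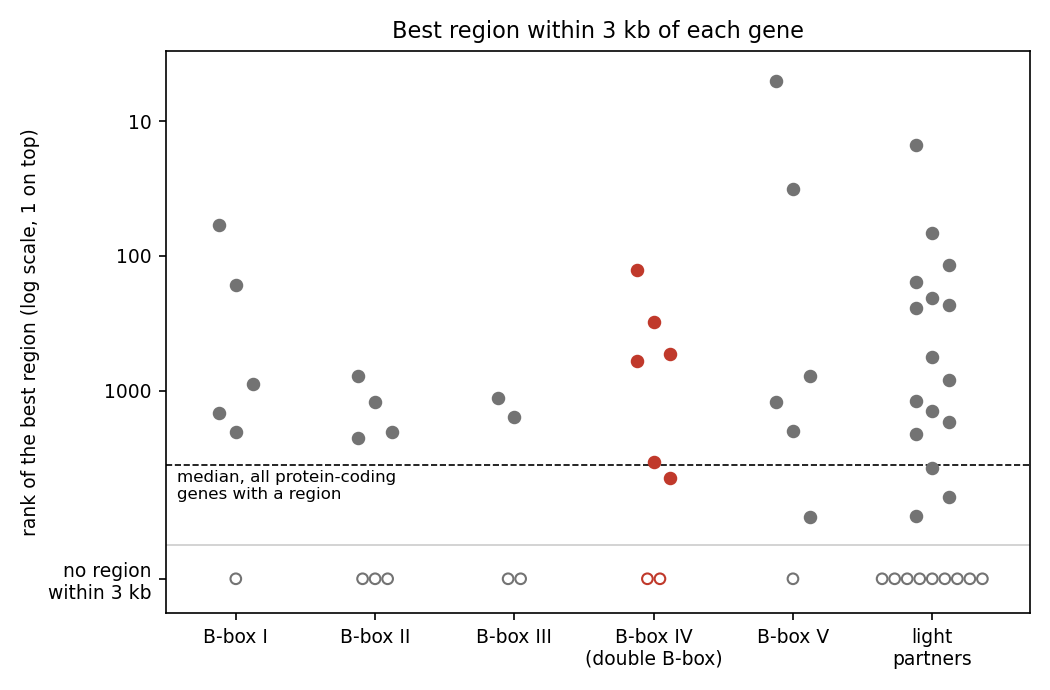
Rank of the best region within 3 kb of each gene on a log scale with rank 1 on top, for the 5 B-box groups and 25 light pathway genes. Filled points are genes with a region, open points genes without one, and the dashed line is the median rank of all protein-coding genes with a region, 3575. In group IV (red) 4 genes lie above that line by far, BBX21 and BBX20 lie near it at ranks 3401 and 4451, and 2 are open.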

How the data were processed

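The authors deposited 1 list of regions, called in ChIP over input. TAIR9 was the mapping reference, per the file headers. The aligner and region caller were not given in the sources used here. The deposited columns used were read counts per region (whole numbers, in total and by strand), which are not normalised and whose library is not stated, the false discovery rate in percent, and the region's length in bp. Library depths are unknown; all regions together held 5112270 reads.

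Genes were taken from the RefSeq table of TAIR10.1, in which all 57 listed loci were found. Its build differs from that of the list, and its coordinates are not printed. Distances, given to the nearest 100 bp, assume that positions are the same in both builds at these loci, which was not tested. Regions were ranked by false discovery rate, with ties ranked by reads. Exact Poisson and Clopper-Pearson intervals (95%) used Python 3.11.15 and SciPy 1.17.1, as did the two-sided exact binomial test with Benjamini-Hochberg adjustment (threshold 0.05). The strand test was checked on simulated data. The assignment of regions to genes was checked by a direct count at randomly drawn genes. Reads are not independent molecules, so intervals can be too narrow.

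The genes and lists were chosen with earlier results of these data known. Named were all 8 genes, the coding genes within 1 kb of their regions, and the 5 light pathway genes with the best region. Other genes were named after their values were seen. Motifs in promoters and identities between proteins had been planned and are not analysed here; no sequences were used.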

Additional observations from a re-analysis of the deposited data

How the results depend on the processing

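With 6 of 8 double B-box genes near a region as the reported count, other settings gave 3 to 6. It was 6 with the 4491 regions ranked highest (28.0% of all genes) and with a false discovery rate limit of 5%. It was also 6 with any overlap in place of the centre, with overlapping regions merged, and against all annotated genes (42.8%). Merging could not change the count, since the list still held 8983 regions after it. Nor could the wider gene set, which alters only the share of all genes. The count was 5 within 1 kb and within 500 bp, and 4 with the 2245 ranked highest and with the nearest protein-coding gene alone. The range was 4 to 6 without 3 settings chosen after seeing the data, of which the 2245 with the most reads gave 4, regions centred inside genes gave 3 (against 16.3% of all genes), and the 2245 ranked highest within 1 kb gave 3 (against 8.60%). Of the counts in other B-box groups, that of group III fell to 1 within 500 bp, and those of groups II, III and V to 1, 1 and 2 with regions centred inside genes. BBX18 was lost at each distance of 1 kb or less. None of the 8 regions passed the strand test when it was adjusted only over regions within the 5% limit, where 1.76% of regions passed. The planned change of the promoter window for motifs was not run. No paired analysis was possible because each group had 1 library, and no library could be left out. With 1 library per group, depth and replicate spread limit every value here.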
